A study of Mus musculus with 2 samples.

Results

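Alveolar type 2 (AT2) epithelial cells were examined in single-cell RNA sequencing of whole lung from C57BL/6 mice (C57BL/6J in the study's methods) that spent their first 14 days either in room air, with oxygen at 21%, or in hyperoxia, with oxygen at 80%. Each condition was 1 library made from the lungs of 8 mice mixed together, and no gene was altered in either. Oxygen, pool and library therefore cannot be told apart, no test between conditions was possible, and every interval given is a 95% interval that covers counting error only. The cells were chosen by their own unique molecular identifiers (UMIs, each 1 captured transcript). Barcodes needed 500 or more genes and no more than 20% of their UMIs from mitochondrial genes. An AT2 cell had no UMI of Ptprc or Cdh5, which mark leukocytes and endothelium, and at least 1 UMI of the epithelial genes Epcam, Krt8 and Krt18. The sum S of Lamp3, Slc34a2, Cxcl15 and Hc had to reach 8 and to exceed the sum of the type 1 genes Ager, Hopx, Rtkn2 and Akap5, with fewer than 8 UMIs of Cyp2f2 and fewer than 3 of Foxj1, Tmem212 and Ccdc153, which mark club and ciliated cells. These conditions held in 878 of 15520 kept barcodes (5.66%): 150 of 3809 in room air and 728 of 11711 in hyperoxia.

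AT2 cells are the cuboidal cells of the alveolus that make surfactant, a film of phospholipid and the proteins SP-A, SP-B, SP-C and SP-D that keeps the air spaces open. Surfactant is packed in lamellar bodies, organelles related to lysosomes, and secreted into the alveolus. AT2 cells also divide and give rise to the thin type 1 (AT1) cells through which gas is exchanged, and they take part in innate defence. In the neonatal rodent lung, high oxygen is used to model bronchopulmonary dysplasia, in which formation of new alveoli is arrested.

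The AT2 cells were deeper than the median barcode of both libraries. They held a median of 16166 UMIs in room air (range 1879 to 46113) and 14680.5 in hyperoxia (range 1163 to 54158), against 8299 and 8009 over all kept barcodes. Summed over cells, 2433317 and 10774630 UMIs were available, so a gene was measured more precisely in hyperoxia than in room air. The median mitochondrial share was 3.66% in room air and 4.59% in hyperoxia. Of 17 barcodes that occurred in both libraries, none was an AT2 cell.

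The label was borne out by surfactant genes that the rule had not used. Sftpc, which encodes SP-C, was found in every AT2 cell and made up 2.49% to 29.5% of a room air cell's UMIs (median 20.6%) and 0.482% to 33.6% of a hyperoxia cell's (median 17.5%). The AT2 cells, a small part of each suspension, held 78.5% of all Sftpc UMIs of the kept room air barcodes and 70.1% of those in hyperoxia. Cells near the threshold were few: S was 25 to 748 in room air, and 7 hyperoxia cells lay just inside it (S of 8 to 11, 16 to 673 Sftpc UMIs) and 13 just outside it (S of 4 to 7, 1 to 103 Sftpc UMIs).

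Transcripts of other lineages were a small part of AT2 UMIs but were found in most AT2 cells. No UMI of Col1a1, Col1a2, Col3a1, Tyrobp, Cd79a and Pecam1 was present in 66 of 150 room air and 284 of 728 hyperoxia cells. In CPM, the share of the summed AT2 UMIs scaled to 1e+06, Pecam1 stood at 4.11 in room air and 5.85 in hyperoxia, Tyrobp, a myeloid gene, at 4.52 and 7.89, and Cd79a, a B cell gene, at 8.22 and 3.81, while Ptprc and Cdh5 were 0 by the rule. All 6 endothelial genes together summed to 37.0 and 51.8 CPM, and the 4 haemoglobin genes to 18.5 and 8.72 CPM. The 6 stromal genes summed to 418 and 369 CPM, led by Col3a1 (173 and 106 CPM), and these UMIs lay in few cells: 3 of 150 room air cells and 8 of 728 hyperoxia cells held 50% of the Col1a1 UMIs. Eln, the elastin gene, was not among these 6 and had 1898 and 4718 UMIs, with 50% of them in 2 room air and 6 hyperoxia cells. Free RNA was also present. B-like cells, which do not make surfactant, had at least 1 Sftpc UMI in 71.8% (64.7 to 78.2) of 181 room air cells and 87.3% (82.4 to 91.3) of 237 hyperoxia cells when every cell was reduced to 4000 UMIs, so shares of AT2 cells are given below beside those of B-like cells at the same depth. Before reduction these cells had medians of 16340 and 15040.5 UMIs (AT2) and 5912 and 5405 (B-like), and 6 room air and 32 hyperoxia AT2 cells were too shallow and left out.

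AT2 cells made up 3.94% (3.34 to 4.61) of kept barcodes in room air and 6.22% (5.79 to 6.67) in hyperoxia, a difference of 2.28 percentage points (1.48 to 3.03). Among AT2, AT1 and airway epithelial cells alone, AT2 cells were 67.3% (60.7 to 73.4) of 223 in room air and 77.9% (75.1 to 80.6) of 934 in hyperoxia. More AT2 cells recovered and fewer cells of other types recovered cannot be told apart. The difference was 0.69 percentage points without AT2 cells holding a UMI of 6 genes of other lineages. It was 3.99 with the rule applied at 4000 UMIs, where S had to reach 4 instead of 8.

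Promoter sequences are shown here for 3 targets of p53, the stress-activated transcription factor, and for the surfactant genes of SP-B and SP-A. The 3 targets were at least 2-fold higher in hyperoxia and held a p53 half-site in this window, which not every such target did. Each is the 250 bases before the gene's annotated start in RefSeq (GRCm38.p6), read 5′ to 3′ on the gene's strand. Gene positions given with the results are from GENCODE vM21 on the same build, whose starts differ for some genes, so the windows of Cdkn1a, Ccng1 and Sftpa1 run 3, 25 and 6 bases into the GENCODE gene. Capitals in the first 3 mark the p53 half-site consensus, searched on both strands, and overlapping matches would share their capitals.
Cdkn1a, chr17:29090729-29090978, plus strand: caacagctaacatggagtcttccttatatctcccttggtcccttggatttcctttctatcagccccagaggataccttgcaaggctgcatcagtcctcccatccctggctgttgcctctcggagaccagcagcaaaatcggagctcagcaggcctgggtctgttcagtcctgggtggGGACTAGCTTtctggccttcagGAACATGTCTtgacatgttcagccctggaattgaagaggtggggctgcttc
Ccng1, chr11:40755287-40755536, minus strand: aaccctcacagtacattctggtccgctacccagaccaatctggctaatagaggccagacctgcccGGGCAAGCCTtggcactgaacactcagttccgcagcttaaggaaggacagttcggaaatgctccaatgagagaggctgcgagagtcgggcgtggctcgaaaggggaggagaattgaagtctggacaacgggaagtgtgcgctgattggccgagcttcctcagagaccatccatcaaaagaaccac
Bax, chr7:45466899-45467148, minus strand: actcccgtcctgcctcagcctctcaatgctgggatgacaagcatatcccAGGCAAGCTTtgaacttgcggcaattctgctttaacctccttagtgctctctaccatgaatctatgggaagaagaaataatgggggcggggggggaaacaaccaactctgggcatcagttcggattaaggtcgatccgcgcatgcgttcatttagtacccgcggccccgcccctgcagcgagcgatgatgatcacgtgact
Capitals in the next ones mark CTCAAG, the core bound by NKX2-1, the lung epithelial transcription factor, again searched on both strands.
Sftpb, chr6:72304360-72304609, plus strand: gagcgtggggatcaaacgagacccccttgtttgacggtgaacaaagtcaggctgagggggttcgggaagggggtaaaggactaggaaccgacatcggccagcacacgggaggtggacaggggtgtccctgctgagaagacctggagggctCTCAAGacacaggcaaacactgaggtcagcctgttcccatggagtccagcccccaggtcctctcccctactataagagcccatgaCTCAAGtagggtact
Sftpa1, chr14:41131538-41131787, plus strand: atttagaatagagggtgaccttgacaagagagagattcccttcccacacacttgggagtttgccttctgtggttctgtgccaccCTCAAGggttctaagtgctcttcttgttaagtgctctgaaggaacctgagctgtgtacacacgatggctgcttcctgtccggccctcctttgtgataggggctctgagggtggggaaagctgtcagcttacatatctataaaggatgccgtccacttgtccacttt
The Cdkn1a window held 2 half-sites, beginning 73 and 51 bases before the start. Of 17 p53 targets examined, 14 had a promoter in the table and 5 of these (35.7%) held a half-site (Bax, Ei24, Mdm2, Ccng1 and Cdkn1a), against 7.18% of 27025 promoters. CTCAAG was present in both surfactant promoters in the table and in 13.6% of all promoters. A match describes these letters and shows no binding. The antioxidant response element core, TGACNNNGC on either strand, was found in 5 of 20 promoters of antioxidant genes (25%: Gclm, Prdx1, Mt2, Sod1 and G6pdx) and in 10.1% of all.

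To compare the conditions, UMIs were summed over the AT2 cells of each library, and 5245 genes with a mean of at least 20 CPM were compared as the ratio of hyperoxia over room air. Of these, 53 (1.01%) were at least 2-fold higher in hyperoxia and 96 (1.83%) at least 2-fold lower. Gene groups are described below by how many of their compared members passed 2-fold, beside these 2 shares. The median log2 ratio over all 5245 genes was 0.02, with 2753 higher and 2492 lower. Counting intervals lay above 0 for 1087 of them and below 0 for 995. Counts of group members that were higher or lower, or had an interval off 0, are to be read beside these. A gene could reach the mean of 20 CPM through 1 library alone and then had to differ, so the counts and medians of compared members are a description of them and not of every member of a list.

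**Figure D1:**
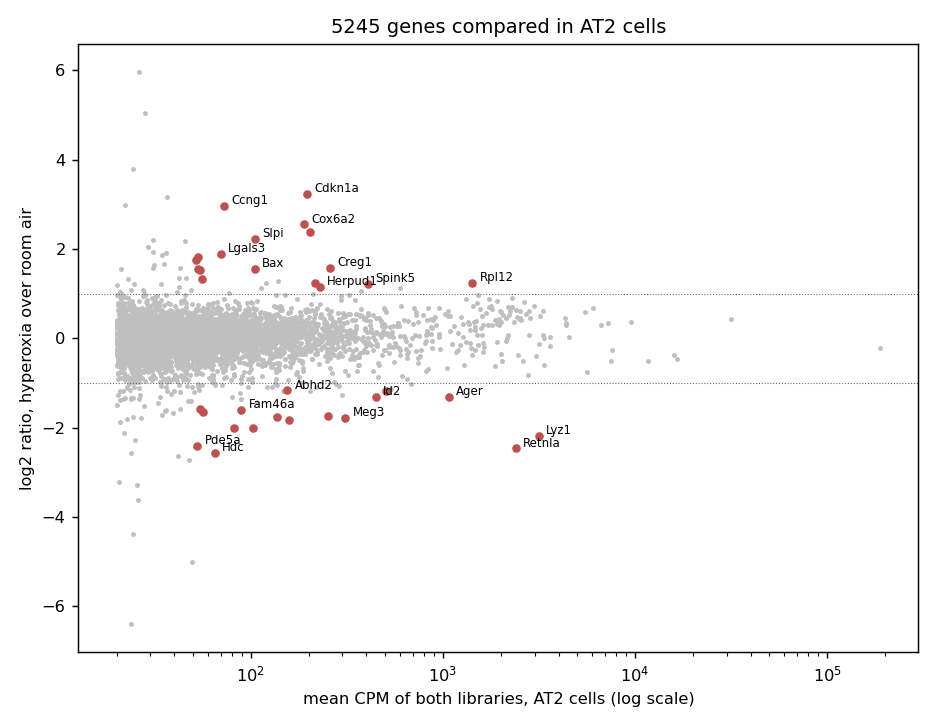
Each point is 1 of 5245 genes, with its mean CPM over both AT2 libraries on a log scale across and its log2 ratio of hyperoxia over room air upwards. Dotted lines mark 2-fold, and red points are the genes named by size of ratio among those with a mean of at least 50 CPM, from Cdkn1a at 3.23 to Hdc at -2.57.

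The 4 surfactant protein genes were lower in hyperoxia, each by less than 2-fold. Sftpc was the most abundant transcript of AT2 cells in both libraries and stood at 202999 CPM in room air and 175348 in hyperoxia, a log2 ratio of -0.21 (-0.22 to -0.21). Sftpb, which encodes the SP-B that lamellar body formation needs, stood at 8813 and 6153 CPM (log2 ratio -0.52). Sftpa1 and Sftpd, which encode the defence collectins SP-A and SP-D, had log2 ratios of -0.51 and -0.12. All 4 were thus lower, with a median of -0.36, and together they made up 22.9% of AT2 UMIs in room air and 19.4% in hyperoxia. In all other kept cells the same 4 genes had a median log2 ratio of 0.93.

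Genes of lamellar bodies and surfactant processing went both ways. Lower members included Napsa, the protease that matures SP-B and SP-C (log2 ratio -0.50), Abca3, the lamellar body lipid transporter (-0.28), Lpcat1, which makes the dipalmitoyl phosphatidylcholine of surfactant (-0.59), and Scd1, a fatty acid desaturase (-0.61). Higher members included the lysosomal genes Lamp1 (0.59), Lamp2 (0.47), Cd63 (0.39), Ctsh (0.30) and Hexa (0.56). Of 13 members compared that the rule had not used, 5 were higher and 8 lower, and none passed 2-fold. Slc34a2, the phosphate transporter used to choose the cells, was level at 4493 and 4555 CPM.

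Lipid synthesis was lower in most members by small amounts. Of 14 genes of fatty acid synthesis and uptake, 12 were lower, 9 with an interval below 0, with a median log2 ratio of -0.23 and none past 2-fold. Acly and Elovl1, early and late steps of fatty acid synthesis, stood at -0.56 and -0.60. Of 9 genes of phosphatidylcholine synthesis, 7 were lower, including Chka (-0.53) and Pcyt1a (-0.46), whose product sets the pace of the pathway, while Lpin2, a phosphatidate phosphatase, was higher (0.89). Among 12 cholesterol genes, Insig1, which restrains sterol synthesis, was the one past 2-fold (-1.05).

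Transcription factors and regulators of AT2 cells and of lung epithelium more widely were lower in 16 of 17 members. Of these, 10 had an interval below 0, and the median log2 ratio of the 17 was -0.27. Id2, an inhibitor of basic helix-loop-helix factors, stood at 638 CPM (606 to 670) in room air against 258 CPM (248 to 267) in hyperoxia, and its log2 ratio was -1.31 (-1.40 to -1.22). Etv5, an ETS factor induced by FGF signalling that sustains AT2 cells, stood at 391 and 185 CPM (-1.08, -1.19 to -0.96). Both intervals lay well apart from 0, and these were the 2 members past 2-fold. Cebpa, a factor for AT2 maturation, stood at -0.67, Sox9 at -0.73, and Nkx2-1, which directs the lung epithelial programme, at -0.43, whereas Foxp2 and Grhl2 stood at -0.02 and 0.04 with intervals that included 0.

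At 4000 UMIs, Etv5 was seen in 79.2% (71.6 to 85.5) of 144 room air AT2 cells and 51.4% (47.7 to 55.2) of 696 hyperoxia cells, against 0 of 181 (exact interval up to 2.02%) and 5.91% of B-like cells. Id2 was seen in 83.3% (76.2 to 89.0) and 55.7% (52.0 to 59.5) of AT2 cells and in 9.39% and 12.2% of B-like cells. At full depth the shares were 96.0% and 86.4% for Etv5 and 98.0% and 85.0% for Id2.

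Receptors, ligands and targets of growth signals were lower in most members. Fgfr2, the receptor for FGF7 and FGF10 on lung epithelium, stood at 271 and 182 CPM (log2 ratio -0.57, -0.70 to -0.44). Spry2, a feedback inhibitor induced by FGF signalling, stood at 132 and 61.8 CPM (-1.09, -1.29 to -0.90), and Dusp6, a further feedback gene, at 29.2 and 26.5 CPM (-0.14, -0.52 to 0.25). Notch2 (-0.96), Notch1 (-0.50), Bmp4 (-0.75) and the Wnt receptor Fzd2 (-0.53) were lower, and Vegfa (0.44), Tgfbr2 (0.38) and Bmpr2 (0.30) were higher. Of 17 members compared of 31 listed, 11 were lower and 2 of them passed 2-fold, Spry2 and Dlk1, and Dlk1 was below 20 CPM in hyperoxia. The median of -0.21 turned to 0.10 with a mean of at least 50 CPM.

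Dlk1, a paternally expressed Notch ligand relative, and Meg3, the maternally expressed noncoding RNA of the same imprinted locus, were both lower. Meg3 stood at 482 CPM (455 to 511) in room air against 139 CPM (133 to 147) in hyperoxia, and its log2 ratio was -1.79 (-1.90 to -1.68). It was seen in 63.9% (55.5 to 71.7) and 24.4% (21.3 to 27.8) of AT2 cells at 4000 UMIs and in 2.21% and 2.95% of B-like cells, and at full depth in 81.3% and 41.2% of AT2 cells. Dlk1 had 113 and 24 UMIs (log2 ratio -4.38, -5.08 to -3.74), and 3 of 150 room air cells held 50% of its UMIs. Among 5 imprinted growth genes compared, Grb10 (-0.65) and Cdkn1c (-0.74) were also lower and Igf2r, which clears IGF2, was higher (0.43). In the remaining cells of the lung Meg3 was level (120 and 118 CPM).

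Targets of p53 were among the genes with the highest ratios. Cdkn1a, which encodes the cell cycle inhibitor p21 (chr17:29090976-29100727, plus strand), stood at 37.8 CPM (30.5 to 46.4) in room air against 355 CPM (344 to 367) in hyperoxia, and its log2 ratio was 3.23 (2.93 to 3.55). Ccng1, cyclin G1 (chr11:40748552-40755311, minus strand), stood at 16.4 and 129 CPM (2.97, 2.52 to 3.46). Phlda3, a p53-induced repressor of AKT (chr1:135766119-135769136, plus strand), had 4 UMIs in room air and 588 in hyperoxia (5.05, 3.69 to 6.93). Gdf15, a stress-induced secreted factor, had 8 and 489 UMIs (3.79, 2.80 to 5.01).

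Zmat3 (2.03), the pro-apoptotic Bax (1.56) and Trp53inp1 (1.55) completed the 7 that were at least 2-fold higher among 12 compared of 17 listed, beside 1.01% of all genes, and the median of the 12 was 1.56. Of these 7, Ccng1, Gdf15, Phlda3 and Zmat3 were below 20 CPM in room air and were compared through their hyperoxia level alone. Ei24 was higher by less than 2-fold (0.33, 0.09 to 0.59), and the other 4 members were not higher. Mdm2, which degrades p53, stood at 27.9 and 27.2 CPM (log2 ratio -0.04, -0.42 to 0.36), Btg2 at -0.02, Bbc3 at -0.32 (-0.76 to 0.13), and Plk2, a stress-responsive kinase, at -1.62 (-1.95 to -1.29). Cdkn1a, Ccng1 and Bax, whose promoters with a half-site are printed above, were higher, and the promoters of Mdm2 and Ei24 also held one. Phlda3, Gdf15, Zmat3 and Trp53inp1, also at least 2-fold higher, were not among the targets found with a half-site. A link between half-site and level was not tested.

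Cdkn1a and Ccng1 were spread over many AT2 cells of the hyperoxia library. At 4000 UMIs, Cdkn1a was seen in 14.6% (9.26 to 21.4) of room air cells and 54.7% (51.0 to 58.5) of hyperoxia cells, and Ccng1 in 5.56% (2.43 to 10.7) and 35.6% (32.1 to 39.3). At full depth the shares were 30.7% and 78.0% for Cdkn1a and 22.7% and 67.0% for Ccng1. Phlda3 and Gdf15 were seen in fewer, 16.1% (13.4 to 19.04) and 12.1% (9.74 to 14.7) of hyperoxia cells at 4000 UMIs, and 66 and 35 of the 728 cells held 50% of their UMIs. B-like cells, which can express Cdkn1a and Ccng1, had a Cdkn1a UMI in 8.84% and 22.8% and a Ccng1 UMI in 10.5% and 14.8% at 4000 UMIs. Within the hyperoxia library, the 381 AT2 cells with a Cdkn1a UMI at that depth had a Ccng1 UMI in 44.6%, a Phlda3 UMI in 21.3% and a Gdf15 UMI in 17.6% of cells, against 24.8%, 9.84% and 5.397% of the 315 cells without one. Their median Sftpc count was 667 of 4000 UMIs against 784. These are counts of cells within 1 library and carry no test.

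Cdkn1a was higher outside the AT2 cells too. In all other kept cells it stood at 153 and 717 CPM (log2 ratio 2.23), and the 12 targets had a median of 1.13. In AT1 cells it stood at 154 and 225 CPM (0.55, 0.26 to 0.84), with a median of 0.46. The AT1 cells here and below were chosen without a limit on club or ciliated genes. Their Scgb1a1, a club cell transcript, stood at 132614 CPM in room air and 24290 in hyperoxia. Their Sftpc, an AT2 transcript, stood at 22113.5 and 32353.9 CPM. The part of free RNA from other cells in the AT2 values was not tested.

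Cell cycle genes were lower, in a small number of cells. Mki67, a marker of cycling cells, had 116 UMIs in room air and 42 in hyperoxia (log2 ratio -3.61, -4.16 to -3.09), Top2a had 113 and 51 (-3.29), and Ube2c 115 and 6 (-6.41). In each library 2 cells held 50% of the Mki67 UMIs. At least 2 of the 5 genes Mki67, Top2a, Cenpf, Ube2c and Birc5 were seen in 10 of 150 room air cells (6.67%, 3.24 to 11.9) and 3 of 728 hyperoxia cells (0.412%, 0.0851 to 1.20) at full depth, and in 4.17% (1.54 to 8.85) and 0.287% (0.0348 to 1.03) at 4000 UMIs. B-like cells at that depth reached the same count in 2.76% and 13.5%, but at full depth in 2.32% and 3.66%. The cut at 4000 UMIs kept 181 of 302 room air and 237 of 1038 hyperoxia B-like cells.

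Of 12 cell cycle genes compared of 24 listed, 11 were lower and 7 passed 2-fold, beside 1.83% of all genes, with a median log2 ratio of -1.06. Mki67, Top2a and Ube2c, 3 of these 7, were below 20 CPM in hyperoxia and were compared through their room air level alone. The tubulins Tubb5 and Tuba1b (both -1.18), Stmn1 (-1.03) and Hmgb2 (-1.10), each found in 62.1% to 91.3% of cells at full depth, were among them, while Ccnd1 (-0.54), Pcna (-0.66) and H2afz (0.04) were not. The median moved with the choice of cells. When AT2 cells with any UMI of 6 genes of other lineages (Col1a1, Col1a2, Col3a1, Tyrobp, Cd79a and Pecam1) were left out, 66 room air and 284 hyperoxia cells remained, the median was -0.29, and Mki67 stood at -1.23.

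Antioxidant genes were higher as a group. Of 18 compared, 17 were higher, 14 with an interval above 0, and 2 passed 2-fold, Gstm1 and Prdx6, with a median log2 ratio of 0.47. Gstm1, a glutathione transferase, stood at 16.4 and 74.3 CPM (2.18, 1.72 to 2.67) and was compared through its hyperoxia level alone, and Prdx6, a peroxiredoxin that also has phospholipase activity in surfactant turnover, at 244 and 508 CPM (1.06, 0.93 to 1.18). Gclc, the catalytic subunit for glutathione synthesis, stood at 0.96, mitochondrial Sod2 at 0.98, Txnrd1 at 0.82 and the ferritin chains Ftl1 and Fth1 at 0.90 and 0.71. Catalase, which removes hydrogen peroxide in peroxisomes, was the one that was lower (Cat, -0.31, -0.41 to -0.21), and Hmox1, haem oxygenase, stood at 0.20 with an interval that included 0 (-0.15 to 0.57).

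At 4000 UMIs Prdx6 was seen in 58.3% (49.8 to 66.5) of room air and 81.6% (78.5 to 84.4) of hyperoxia AT2 cells, and Gstm1 in 6.94% (3.38 to 12.4) and 23.6% (20.5 to 26.9), against 3.31% and 6.33% of B-like cells. At full depth the shares were 91.3% and 97.0% for Prdx6 and 22.0% and 54.5% for Gstm1. Summed per cell, the antioxidant list gave a median of 27 UMIs of 4000 in room air (quartiles 23 and 32) and 41 in hyperoxia (quartiles 33 and 51). The list had a median log2 ratio of 0.30 in all other kept cells and 0.06 in AT1 cells, where Gstm1 stood at -1.09. These AT1 cells held the unequal club cell and AT2 transcripts described above, and the part of these in the AT1 values was not tested.

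Subunits of oxidative phosphorylation were also slightly higher, 20 of 24 (18 with an interval above 0) with a median log2 ratio of 0.36 and none past 2-fold. Atp5b (0.66) of the ATP synthase, Sdhc (0.68) of complex II and Cox4i1 (0.54) of complex IV were among the higher members, and Cox6c (-0.22) and Ndufa2 (-0.18) among the lower. Cox6a2, the heart and muscle form of a complex IV subunit that was not in that list, stood at 55.1 CPM (46.1 to 65.2) and 323 (312 to 334), a log2 ratio of 2.55. It was seen in 11.1% (6.49 to 17.4) and 45.1% (41.4 to 48.9) of AT2 cells at 4000 UMIs and in 0.552% and 2.53% of B-like cells, and at full depth in 35.3% and 66.9% of AT2 cells. In all other kept cells Cox6a2 had a log2 ratio of 3.96. The mitochondrially encoded mt-Co1, mt-Co3 and mt-Atp6 had log2 ratios of 0.37, 0.34 and 0.30, beside the higher mitochondrial share of the hyperoxia cells.

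Stress genes of the endoplasmic reticulum went separate ways. Herpud1, which serves degradation of misfolded proteins, stood at 142 and 314 CPM (1.14, 0.98 to 1.31) and was the 1 of 12 past 2-fold. The chaperones Calr (0.50), Manf (0.47) and Hspa5 (0.32) were higher, whereas Atf4 (-0.34), Xbp1 (-0.28) and Ddit3 (-0.50) were lower. Genes of ion and water transport were mixed. Of 13 compared, 8 were higher and 5 lower, with a median of 0.06, and the 1 past 2-fold was lower, the anion exchanger Slc26a4 (41.1 and 8.54 CPM, -2.27), which turned to 0.65 without cells holding a UMI of 6 genes of other lineages. Scnn1a, a subunit of the epithelial sodium channel, stood at 51.4 and 94.2 CPM (0.87, 0.61 to 1.15), and Atp1b1, a beta subunit of the sodium pump, at 898 and 1276 CPM (0.51), while the water channel Aqp5 stood at -0.50.

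**Figure D2:**
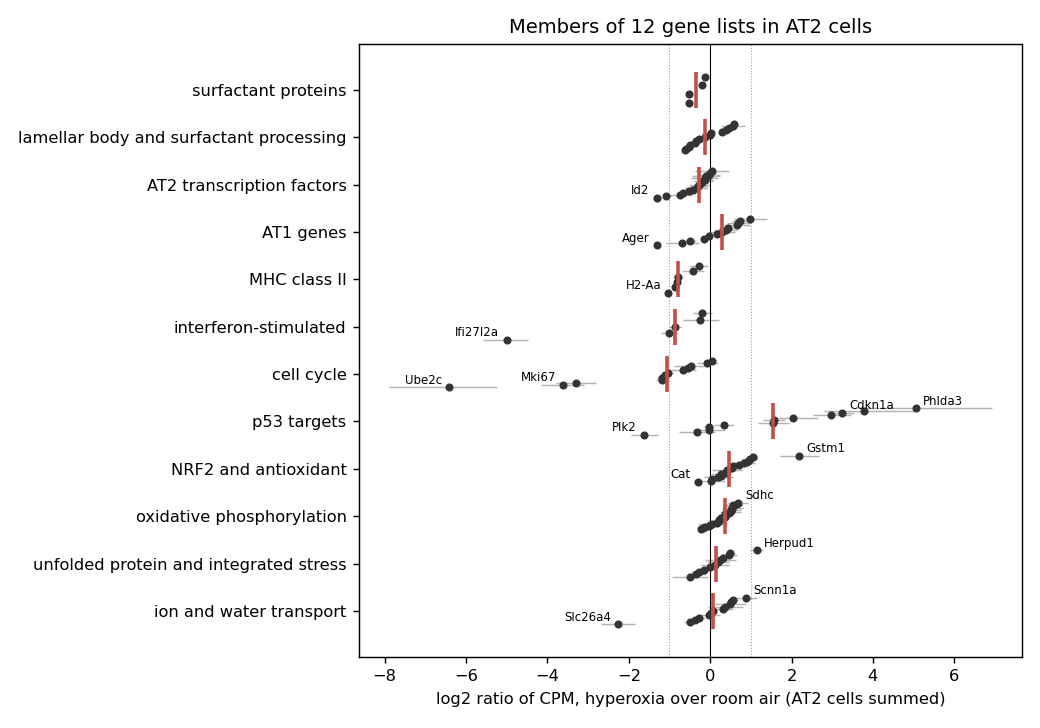
Log2 ratios of CPM, hyperoxia over room air, in summed AT2 cells for the compared members of 12 gene lists. Each point is 1 gene with its 95% counting interval as a grey line, the red bar is the list's median, and dotted lines mark 2-fold. Surfactant proteins (median -0.36) and MHC class II (-0.80) lie left of 0, p53 targets (1.56) and antioxidant genes (0.47) right of it.

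Antigen presentation genes were lower. AT2 cells express MHC class II, which presents extracellular antigen to CD4 T cells, without being professional immune cells. All 6 class II genes compared were lower, with a median log2 ratio of -0.80: H2-Aa stood at 917 CPM (879 to 956) and 450 (437 to 462), a log2 ratio of -1.03 (-1.10 to -0.96), H2-Ab1 at -0.86, H2-Eb1 at -0.79 and Cd74, the invariant chain, at 3554 and 2017 CPM (-0.82). H2-Aa alone passed 2-fold. It was seen in 92.4% (86.7 to 96.1) and 69.1% (65.5 to 72.5) of AT2 cells at 4000 UMIs and in 97.3% and 86.4% at full depth. B-like cells make these transcripts and give no background for them.

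The 7 MHC class I genes compared were lower as well, with a median of -0.15, 4 intervals below 0 and H2-T23 the furthest from 0 (-0.93). Among 5 interferon-stimulated genes, all of them lower, Ifi27l2a had 232 and 32 UMIs (log2 ratio -5.00, -5.59 to -4.47), Ifitm3 stood at -1.002 and Ifi27 at -0.86, and 3 of the 5 intervals lay below 0. Ifi27l2a was seen in 18.8% and 0.862% of AT2 cells at 4000 UMIs, below the 54.1% and 32.9% of B-like cells, so its AT2 value is not told from free RNA. In other cells Ifi27l2a had a log2 ratio of -1.71 and class II a median of -0.43. In AT1 cells the class II median was 0.81, and the part of AT2 transcripts in that value was not tested.

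Defence genes were carried unevenly by AT2 cells. Lyz1 (chr10:117287797-117292868, minus strand), a lysozyme known from Paneth cells, stood at 5176 CPM (5086 to 5268) in room air against 1137 CPM (1117 to 1158) in hyperoxia, and its log2 ratio was -2.19 (-2.22 to -2.15). It was unevenly spread: 11 of 150 room air cells and 17 of 728 hyperoxia cells held 50% of its UMIs, with single cells up to 31815 and 61113 CPM. A share of 22.7% of room air cells but 3.85% of hyperoxia cells had at least 10000 CPM. At 4000 UMIs it was seen in 43.8% (35.5 to 52.3) and 22.4% (19.4 to 25.7) of AT2 cells and in 2.76% and 0.844% of B-like cells, and at full depth in 54.7% and 30.2% of AT2 cells.

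The neighbouring Lyz2 had a UMI in 97.3% of AT2 cells of each library and stood at 18156 and 13950 CPM (-0.38). Lyz1 and Lyz2 are close copies, and reads that matched both cannot be assigned. Cells with and without a Lyz1 UMI had Sftpc medians of 851 and 821 of 4000 UMIs in room air and 722 and 719 in hyperoxia.

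Retnla, a secreted resistin-like protein, stood at 4069 and 736 CPM (log2 ratio -2.47), but 4 cells of each library held 50% of its UMIs. It was seen in 29.9% (22.5 to 38.04) and 17.8% (15.0 to 20.9) of AT2 cells at 4000 UMIs, against 11.6% and 7.59% of B-like cells, and in 46.0% and 36.7% at full depth. Chia1, an acidic chitinase, stood at 247 and 69.8 CPM (-1.82) and Wfdc2 at 4041 and 2680 CPM (-0.59).

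Other defence genes were higher. Slpi, an inhibitor of neutrophil elastase, stood at 37.0 and 174 CPM (2.23, 1.93 to 2.56) and was seen in 9.72% (5.42 to 15.8) and 30.03% (26.6 to 33.6) of AT2 cells at 4000 UMIs, against 0.552% and 5.06% of B-like cells, and in 29.3% and 51.2% at full depth. Lcn2, an iron-sequestering lipocalin, stood at 1102 and 1896 CPM (0.78), and was seen in 91.0% and 86.4% of cells at 4000 UMIs and in 98.0% and 95.3% at full depth. The highest single cell had 6014 CPM of Lcn2 in room air and 17210 in hyperoxia. Saa3, an acute phase protein, had 2 and 556 UMIs (5.97, 4.11 to 9.02), but 4 hyperoxia cells held 50% of these and the share of cells at 4000 UMIs, 3.74% (2.45 to 5.43), overlapped that of B-like cells (2.11%, 0.688 to 4.85) and is not told from free RNA. At full depth it was 8.10%. Of the 11 defence genes compared that the rule had not used, Slpi and Saa3 were at least 2-fold higher and Lyz1 lower, with a median of 0.0088, and Saa3 was compared through its hyperoxia level alone.

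**Figure D3:**
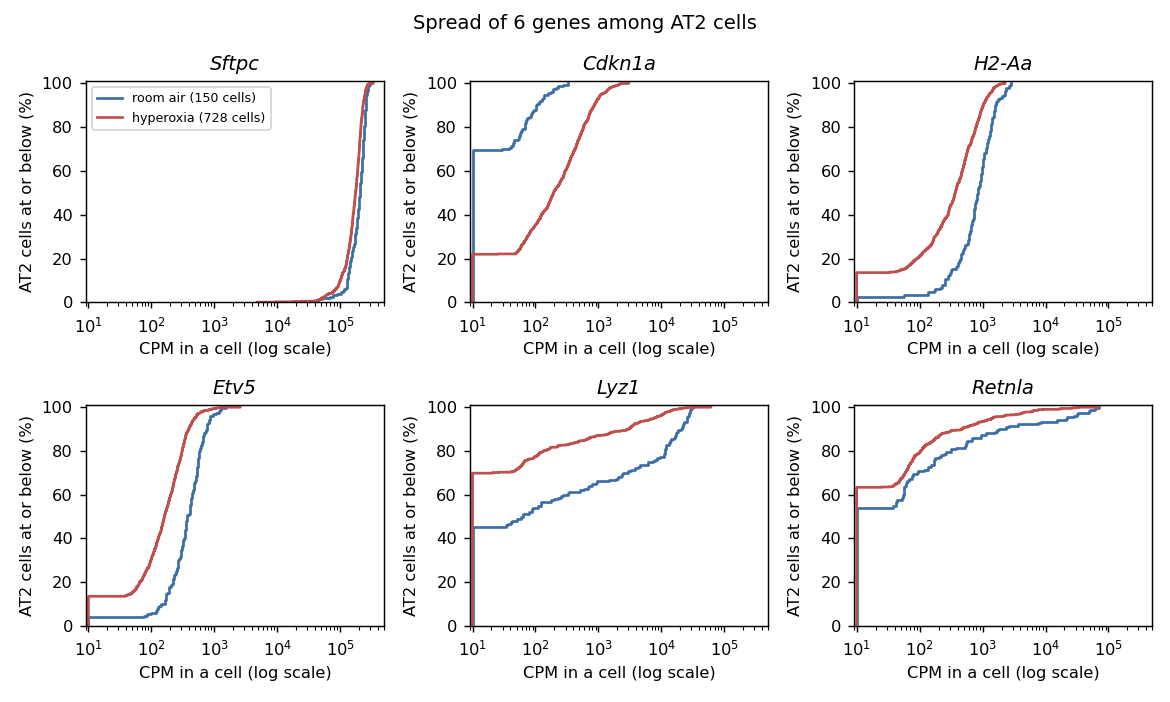
Cumulative share of AT2 cells (150 in room air, blue; 728 in hyperoxia, red) at or below a CPM within the cell, on a log scale, for 6 genes. Cells with no UMI are drawn at 10 CPM. Sftpc is narrow in both libraries, Cdkn1a and H2-Aa are shifted over most cells, and Lyz1 and Retnla are carried at high level by a minority.

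AT1 genes and genes of the transitional state between AT2 and AT1 were mixed. Ager, the AT1 receptor RAGE that the rule used as an upper bound, stood at 1537 and 618 CPM (log2 ratio -1.31). Hopx (0.66), Rtkn2 and Akap5 belonged to the same bound, so these 4 are given as a description. Of the 10 AT1 genes compared that the rule had not used, 6 were higher and 4 lower, none past 2-fold, with a median log2 ratio of 0.27. The higher ones included the collagens Col4a3 (0.98) and Col4a4 (0.69), Lmo7 (0.73) and Clic5 (0.38), while Igfbp2 (-0.68) and Aqp5 (-0.50) were lower. With the rule genes included, the median was 0.29 and turned to -0.21 without barcodes marked as doublets, to -0.19 with the rule applied at 4000 UMIs and to -0.025 as a mean over single cells.

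Of 17 transitional genes compared, 11 were higher and 6 lower, with a median of 0.21 that was -0.0013 without barcodes marked as doublets and 0.13 without Krt8 and Krt18, which were part of the rule. Cdkn1a and Lgals3, galectin 3 (29.6 and 110 CPM, 1.90), were past 2-fold upwards and Hbegf, an EGF receptor ligand, downwards (-1.18). The keratins Krt8 (0.43), Krt18 (0.21) and Krt19 (0.76) were higher by less than 2-fold, and Sfn stood at -0.36 (-0.76 to 0.07). Krt8 was seen in 31.3% (23.8 to 39.5) and 39.7% (36.0 to 43.4) of AT2 cells at 4000 UMIs, intervals that overlap, and in 70.7% and 76.6% at full depth.

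Among the genes with the largest ratios whose AT2 level was at least that of all other kept cells in the higher library, 12 were higher and 12 lower. The higher ones not yet described were Rgcc, a regulator of cell cycle (65.3 and 343 CPM, log2 ratio 2.39), Ephx1, a xenobiotic epoxide hydrolase (1.82), the stress factor Atf5 (1.75), the lysosomal glycoprotein Creg1 (129 and 387 CPM, 1.58), Gdpd1 (1.32), the ribosomal protein gene Rpl12 (1.23), the cytokine Mif (1.23) and the protease inhibitor Spink5 (244 and 570 CPM, 1.22). Rpl12 has processed copies in the genome, and its count is uncertain. Bax, Trp53inp1, Cdkn1a, Lgals3 and Nebl (1.52) met the same rule but were more abundant in other cells.

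The lower ones not yet described were Hdc, which makes histamine (111 and 18.7 CPM, -2.57), Scgb1c1, a secretoglobin (-2.01), the apolipoprotein Apoc1 (387 and 117 CPM, -1.73), Fam46a (-1.61), transferrin (Trf, 704 and 312 CPM, -1.17) and the lipid hydrolase Abhd2 (-1.17). Pde5a (-2.41), Aspn (-2.01), Adamts1 (-1.76), Tuba1a (-1.64) and Postn (-1.58) were likewise lower but more abundant in other cells. Aspn, Tuba1a and Postn reversed to 1.49, 0.08 and 0.03 without cells holding a UMI of the 6 genes of other lineages, and Pde5a stood at -0.38.

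**Figure D4:**
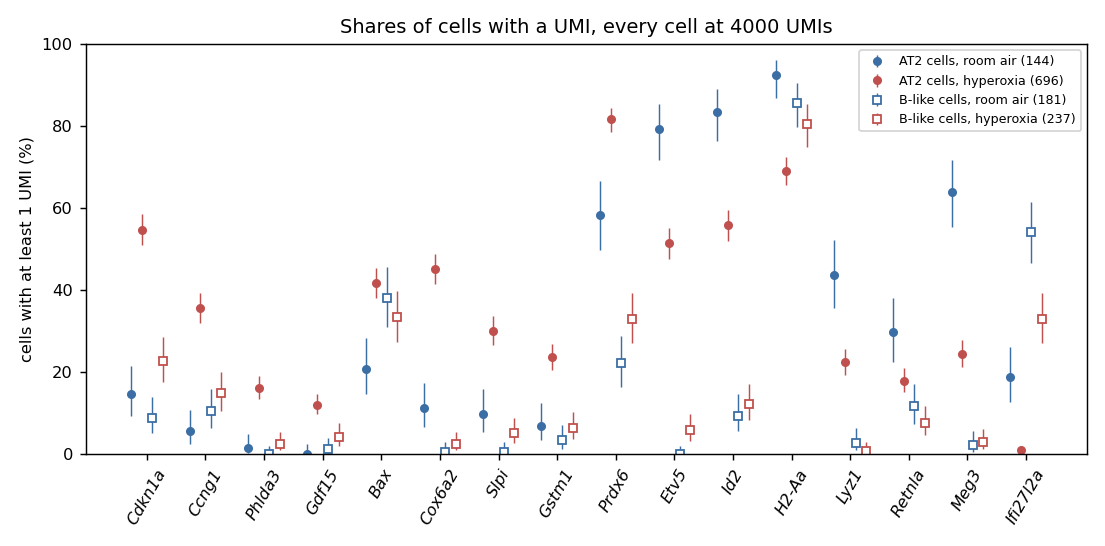
Share of cells with at least 1 UMI of 16 genes, every cell reduced to 4000 UMIs, in AT2 cells (filled circles) and B-like cells (open squares) of room air (blue) and hyperoxia (red). Bars are exact 95% binomial intervals, and the number of cells is in the legend. Cdkn1a is seen in 54.7% of hyperoxia and 14.6% of room air AT2 cells, and Meg3 in 24.4% and 63.9%.

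Genes of hypoxia and glycolysis, junctions and the circadian clock showed small differences. Of 14 hypoxia and glycolysis genes, none passed 2-fold (median 0.16), with Aldoa highest (0.59) and Pfkl lowest (-0.51). Of 16 junction and basement membrane genes, none passed it (median 0.02), and Npnt, nephronectin, an integrin ligand of alveolar basement membrane, was highest (0.96). Of 10 clock genes none passed it (median 0.09), with Per1 highest (0.92). Of 16 immediate early and heat shock genes, which respond to dissociation, none passed it (median -0.08), and Fos and Jun stood at -0.05 and 0.07. Xist, transcribed from the inactive X chromosome of females, stood at 81.0 and 197 CPM (1.28), and the Y-linked Ddx3y at 51.8 and 51.4 CPM (-0.01), and the part of the pools' sex make-up in these results was not tested.

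Scgb1a1, the main club cell secretory protein, was seen at 4000 UMIs in 70.8% and 68.5% of AT2 cells and in 83.4% and 85.2% of B-like cells, and at full depth in 98.7% and 95.7% of AT2 cells. The AT2 shares were below those of B-like cells, which do not make it, and 1 room air AT2 cell held 27.2% of the Scgb1a1 UMIs of room air AT2 cells. Cyp2f2, kept below 8 UMIs by the rule, stood at 17.7 and 37.2 CPM.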

How the data were processed

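Whole lungs were perfused, digested with enzymes and run on a droplet 3′ platform, 1 library of 8 pooled mice per condition. The deposited values are counts of UMIs per gene and barcode that the authors made with Cell Ranger against mm10. The processing notes give version 2.1.1, and the other sources name other versions, so the version is uncertain. No cell filter or doublet step was given in the sources used here.

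Barcodes needed 500 or more genes and no more than 20% of UMIs from mitochondrial genes, and AT2 cells were selected on the genes named in the report. The members and the gene lists were chosen with earlier results of these data known. UMIs were summed per library and divided by the total (CPM), with exact Poisson intervals for levels, exact conditional intervals for ratios and exact Clopper-Pearson intervals for shares. UMIs are molecules, but with 1 library per group the intervals hold no spread between animals. Genes with a mean of at least 20 CPM were compared, and past 2-fold was the only call. No gene was tested. For shares, each cell was reduced at random to 4000 UMIs. AT1, airway and B-like cells were set by marker counts, and the few barcodes that met more than 1 definition were counted once in the epithelial total.

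Genes named by size were the 12 highest and 12 lowest ratios among genes with a mean of at least 50 CPM that were at least as abundant in AT2 cells as in all other kept barcodes, and the 5 highest and 5 lowest that met all but that comparison, without predicted, mitochondrial, haemoglobin and sex-linked genes. Members of 29 lists, the 10 most abundant and the 8 most variable genes could also be named. Doublets were ranked by simulated neighbours and 0.8% per 1000 barcodes were marked, 6 and 35 of the AT2 cells. They were kept, and removed as an alternative. Alternatives also changed the rule, the depth, the scaling and the minimum level. Dropping the Ptprc and Cdh5 conditions was added after seeing the data. Python 3.11.15, numpy 2.4.6, scipy 1.17.1, pandas 2.3.3 and matplotlib 3.10.9 were used. The interval code was tested on simulated data.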

Additional observations from a re-analysis of the deposited data

Results flagged for a closer look

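Genes named by size and list genes past 2-fold in AT2 cells were set beside the AT1 cells of the same libraries where they had a mean of at least 20 CPM there and were not part of the selection rule. For 9 of these the AT2 and AT1 cells went opposite ways, with both counting intervals apart from 0. The genes had been chosen by the size of their AT2 ratio, so this count only describes them. The same share over all compared genes was not worked out. The difference between the cell types was not tested. Between room air and hyperoxia, Ube2c had a log2 ratio of -6.41 in AT2 cells and 0 and 89 UMIs in AT1 cells. Mki67 stood at -3.61 in AT2 cells and had 1 and 64 UMIs in AT1 cells (5.10, 2.57 to 10.43), and Top2a at -3.29 with 4 and 65 UMIs (3.13, 1.70 to 5.04). Few AT1 cells were cycling. At least 2 of the 5 cycling genes were seen in 0 of 55 room air AT1 cells (exact interval up to 6.49%). In hyperoxia they were seen in 4 of 120 (3.33%, 0.916 to 8.31), and these intervals overlap. Hmgb2 stood at -1.10 and 1.06, Chia1 at -1.82 and 1.06, Meg3 at -1.79 and 0.62, and Adamts1 at -1.76 and 1.51. H2-Aa stood at -1.03 in AT2 and 0.42 (0.03 to 0.82) in AT1 cells, and Gstm1 at 2.18 and -1.09. The AT1 cells numbered 55 and 120, and their stromal transcripts differed between the libraries too, with a log2 ratio of 4.15 for Col1a1. The AT1 rule set no limit on club or ciliated genes, and Scgb1a1 of club cells stood at 132614 CPM in room air and 24290 in hyperoxia. Sftpc, the most abundant AT2 transcript, stood at 22113.5 and 32353.9 CPM in these AT1 cells. The part of AT2, stromal, airway and cycling cells, or of their free RNA, in the 9 values was not tested.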

How the results depend on the processing

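Of the 13 alternatives, the minima of 10 and 50 CPM leave a gene's own ratio as it is and were not used for it. Under the others, 642 of 647 finite log2 ratios of 59 named genes kept their direction and 5 turned. Of the 647, 605 were past 2-fold in either direction. These genes had been named for large ratios in the same cells. Adding 1 CPM or changing the total could hardly turn them, and S of at least 4 or 16 left the same 150 room air cells. Of 137 recomputed values of the AT2 share difference, the 2-fold counts and the medians of 8 lists (surfactant, AT2 factors, p53, cell cycle, antioxidant, oxidative phosphorylation, MHC class II, transitional), 116 stayed within the limits set for them and 21 moved. Among these medians the transitional one turned, from 0.21 to -0.0013 without doublets. For the rule applied at 4000 UMIs, S had to reach 4 instead of 8. The reduced UMIs of 127 room air and 690 hyperoxia cells were then summed. The count of genes at least 2-fold higher (53) was 138 with the rule applied at 4000 UMIs, 82 without cells holding a UMI of the 6 genes of other lineages, 84 with mitochondrial, ribosomal, haemoglobin and surfactant genes out of the total, 84 with a minimum of 10 CPM and 23 with 50 CPM. The count at least 2-fold lower (96) was 155, 152, 195 and 43 with the rule at 4000 UMIs, those genes out of the total, and minima of 10 and 50 CPM. The difference in AT2 share (2.28 percentage points) was 3.99 with the rule at 4000 UMIs, 0.69 without cells with other-lineage UMIs and 3.58 without the Ptprc and Cdh5 conditions. The cell cycle median (-1.06) was -0.78, -0.29 and -0.78 under these, and -0.71 as a mean over single cells. The surfactant median (-0.36) was -0.45 without cells with other-lineage UMIs, -0.40 without the Ptprc and Cdh5 conditions, -0.33 with those genes out of the total and -0.38 with the median of all genes set to 0. Without the Ptprc and Cdh5 conditions the MHC class II median was -0.64. The leukocyte list had 1 compared gene with these conditions, Lyz2 at -0.38. Without them the list's median was 0.69 over the members that then reached a mean of 20 CPM. The AT1 median (0.29, rule genes included) turned to -0.21 without doublets, -0.19 at 4000 UMIs and -0.025 as a mean over cells, the stromal median (-0.43) to 0.41, 0.23 and 0.0219 without doublets, at 4000 UMIs and without other-lineage UMIs, and the innate immunity median (-0.09, rule genes included) to 0.0041 with S of at least 4. With a mean of at least 50 CPM the median of growth signals (-0.21) turned to 0.10. The junction, immediate early and club medians (0.02, -0.08 and 0.40) also changed sign under at least 1 alternative. Aspn turned to 1.40 without doublets and 1.49 without other-lineage UMIs, where Tuba1a stood at 0.0753, Postn at 0.031 and Slc26a4 at 0.65. The cause was not tested, beyond the fewer cells, genes or UMIs that an alternative leaves. Cdkn1a stayed between 3.04 and 3.98. No paired analysis was possible because each group has 1 library, and no replicate could be left out.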
